A study of Homo sapiens with 12 samples.

Results

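The transcripts described here encode proteins of the small subunit of the cytosolic ribosome. They were chosen by a fixed list of 41 Ensembl transcript identifiers, drawn up for the RPS family, RPSA and FAU. Of these, 22 were listed in the count files and 19 were in none. The list holds 2 candidate identifiers for some genes, so the 41 are not 41 genes. How many genes of the family the 22 cover was not analysed here. Where counts are described, the family means these 22 transcripts. Each of the 22 was listed in all 12 libraries, so the set is 22 of the 18338 transcripts counted. Footprints (RPF, ribosome-protected fragments, the stretches of mRNA shielded from nuclease by a ribosome) and mRNA were counted in wild-type HEK293T cells, an established line derived from human embryonic kidney. Samples were taken at 0, 60 and 360 min of GSK-A1, an inhibitor of PI4KA, the kinase that makes phosphatidylinositol 4-phosphate for the plasma membrane. Each of the 6 groups, RPF or mRNA at 1 of the 3 times, had 2 replicates. All groups, the 0 min group included, carry the same genotype (WT) and the same treatment label (GSK-A1), so 0 min is the reference only through the time in its title. The labels do not say whether replicates came from separate cultures, and p-values measure only the spread between these samples. The count files and the tables used here do not pair transcript identifiers with gene symbols, so single members are given by identifier and their individual roles are not stated. For the same reason markers of the cell line, the large-subunit genes and other translation factors were not analysed here.

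Small-subunit proteins assemble with ribosomal RNA into the particle that binds mRNA, scans to the start codon and reads the codons. Their mRNAs are short, abundant and stable, and most belong to the terminal oligopyrimidine (TOP) class, whose transcripts begin with a C followed by an unbroken run of C and T. TOP mRNAs are known to move together between idle and ribosome-bound pools under the control of the growth-regulating kinase mTORC1 and of the binding protein LARP1. Ribosomal protein genes have many processed pseudogenes, and counts of near-identical copies are uncertain because the treatment of multiply mapping reads is not given in the sources used here.

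The starts of these genes are shown because the TOP run is the sequence feature by which the family is read as a unit. The starts kept from RefSeq's promoter table (GRCh38.p14) were 29, for 26 small-subunit protein genes matched by symbol. Family starts on a single chromosome were left out, so RPS20 is absent and the family list is not complete. The starts of all protein-coding genes, used for comparison, were not restricted in this way. A C followed by at least 4 bases that are each C or T stood at the first base of 19 of the 29 starts (65.5%), read on the gene's strand, against 4.54% of 22199 starts of protein-coding genes. The motif began within 10 bases of 26 of the 29 starts, against 34.1% of all starts. Where it stood at the first base, the run of C and T was 6 to 14 bases long, with a median of 9. Windows of 10 bases before and 20 bases from the start are given for 8 genes, with the run in capitals where it stands at the first base. RPSA, which doubles as a laminin receptor precursor, lies at chr3:39406710-39406739 on the plus strand. FAU, a ubiquitin-like protein fused to a ribosomal protein, lies at chr11:65122115-65122144 on the minus strand. RPS6, the classical substrate of S6 kinase, lies at chr9:19380217-19380246 on the minus strand, and RPS3, a protein of the mRNA entry site, at chr11:75399508-75399537 on the plus strand. RPS24, at chr10:78033853-78033882 on the plus strand, has the longest run of the 29 starts kept. RPS4X, RPS26 and RPS28, at chrX:72277229-72277258 on the minus strand, chr12:56041908-56041937 on the plus strand and chr19:8321486-8321515 on the plus strand, lack the motif at the annotated first base.
RPSA: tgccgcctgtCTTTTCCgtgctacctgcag
FAU: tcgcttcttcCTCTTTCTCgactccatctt
RPS6: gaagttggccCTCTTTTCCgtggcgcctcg
RPS3: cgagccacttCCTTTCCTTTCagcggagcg
RPS24: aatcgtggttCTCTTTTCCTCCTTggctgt
RPS4X: ctccagccccaatttctacgcgcaccggaa
RPS26: acataacctcgattttcttccgccatccgg
RPS28: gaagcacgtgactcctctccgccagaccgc
In RPS26 and RPS28 the run begins after the annotated first base, which counts as no match at that base. RPS4X has no such motif within 10 bases of its start. Which of these genes correspond to which counted transcripts was not analysed here, so no count is tied to a single start.

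Library totals ran from 429026 to 1165740 counts, and the members' own counts from 12 to 5957 per library. The summed counts of the 22 members were 4.35% of RPF replicate 1 at 0 min (exact 95% interval 4.31 to 4.38), 4.57% at 60 min (4.53 to 4.61) and 4.97% at 360 min (4.92 to 5.02). In RPF replicate 2 they were 2.39% at 0 min (2.35 to 2.42), 2.29% at 60 min (2.26 to 2.33) and 1.52% at 360 min (1.49 to 1.55). Every replicate 1 footprint library therefore held a larger share than every replicate 2 library, and the 360 min libraries were the extremes of both. Intervals are for counting error only and leave out the spread between replicates. They treat each count as independent and are too narrow where counts include PCR copies, which are not independent molecules. In mRNA the shares of replicates 1 and 2 were 4.50% and 2.93% at 0 min, 3.87% and 5.66% at 60 min, and 3.21% and 3.07% at 360 min. The group means were 3.37% ± 1.39 (SD, n = 2), 3.43% ± 1.61 and 3.24% ± 2.44 for RPF at 0, 60 and 360 min, and 3.72% ± 1.11, 4.76% ± 1.26 and 3.14% ± 0.0972 for mRNA, so the mRNA means of 0 and 60 min differed by less than their SD. The highest mRNA share was that of replicate 2 at 60 min, and the 360 min libraries lay close together, next above the 0 min replicate 2 library. In a bulk culture, fewer cells with a transcript and less of it per cell cannot be told apart.

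**Figure D1:**
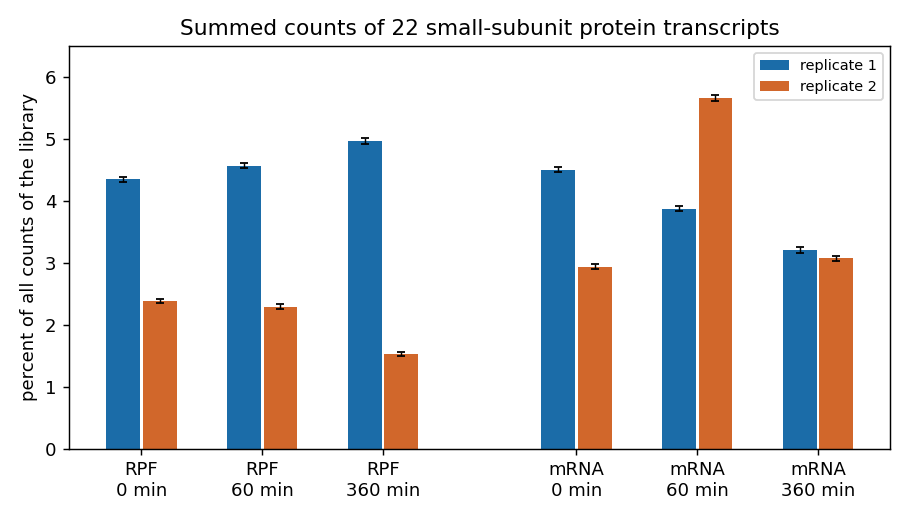
Summed counts of the 22 small-subunit protein transcripts as a percent of all counts of each library (y axis), by assay and time (x axis). Bars are single libraries, coloured by replicate, and error bars are exact 95% intervals for counting error; RPF replicate 1 lies between 4.35% and 4.97% and RPF replicate 2 between 1.52% and 2.39%.

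The separation of the footprint replicates held for each member. For 22 of 22 members, each replicate 1 footprint library was above each replicate 2 library in CPM (counts relative to a library size scaled by the trimmed mean of M-values, TMM), with a gap of at least 1.22-fold, and this number was the same under the 3 other scalings tried. Over all 9653 transcripts tested in RPF, 10.5% showed this pattern. Among 276 other transcripts with a mean of at least 500 CPM in RPF, 108 (39.1%) did. The members' median ratio of replicate 1 to replicate 2 was 2.39 at 0 min, 2.31 at 60 min and 3.76 at 360 min. On the log2 scale these are 1.26, 1.21 and 1.91, where the other transcripts had medians of 0.02, 0.00 and −0.02. The 276 abundant others shared the direction, with smaller medians of 0.44, 0.32 and 0.66. Replicate 1 was the higher for 73.6%, 71.0% and 66.7% of them. Across the 22 members, the log2 difference between replicates had a Pearson r of 0.681 between 0 and 60 min, 0.617 between 0 and 360 min and 0.664 between 60 and 360 min. These are descriptions: members share libraries and are not replicates. Footprints of the members thus differed between replicates by more than they differed between times.

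The order of libraries within members shows the same thing at 360 min. RPF replicate 1 at 360 min was the highest of the 6 footprint libraries for 19 of 22 members, and RPF replicate 2 at 360 min was the lowest for 18 of 22. The members' median footprint level was 2032, 2137 and 2381 CPM in replicate 1 at 0, 60 and 360 min, and 898, 909 and 632 CPM in replicate 2. In mRNA the replicates did not part in this way, and 0 of 22 members had each replicate 1 library above each replicate 2 library (4.15% of 9693 transcripts did). At 0 min replicate 1 was the higher mRNA library for 20 of 22 members, against 49.5% of the other transcripts. At 60 min replicate 1 was the higher for 1 of 22, against 51.3%, and at 360 min for 14 of 22, against 50.0%. Replicate 2 at 60 min was the highest mRNA library for 18 of 22 members, and replicate 2 at 0 min was the lowest for 12. How often each library was the highest or lowest over all transcripts was not analysed here, in RPF or mRNA. These orders thus describe the members and cannot be called particular to them.

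**Figure D2:**
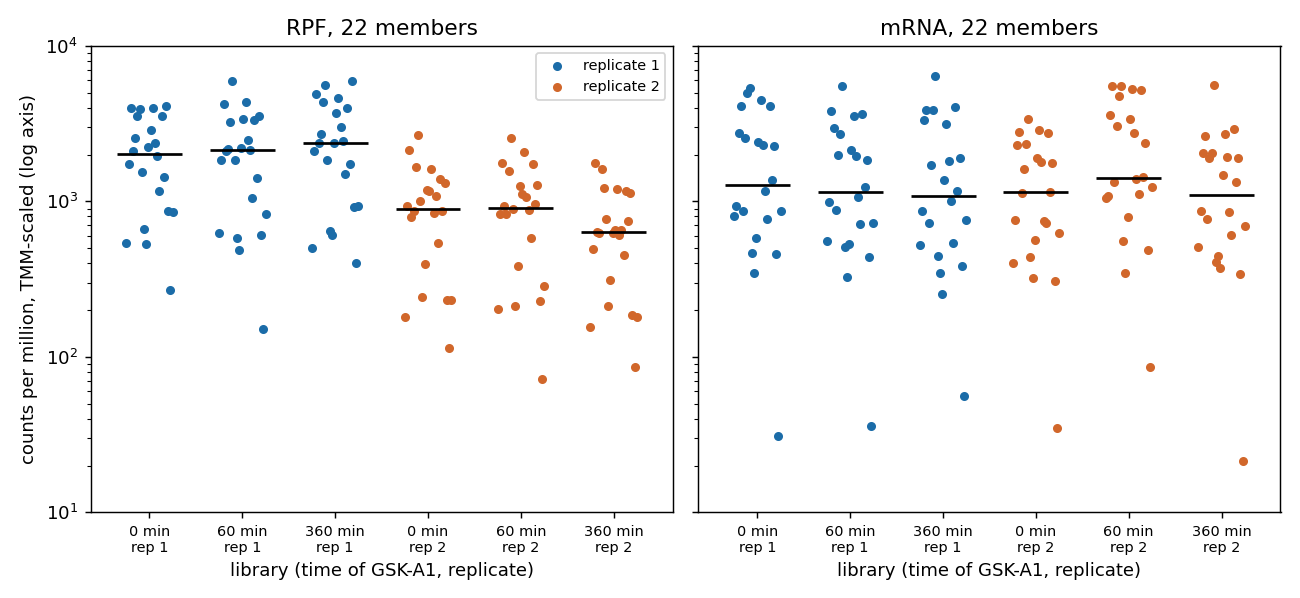
Level of each of the 22 members (points) in TMM-scaled CPM on a log axis, for 6 RPF libraries (left) and 6 mRNA libraries (right), ordered by replicate and time; black lines are medians. RPF medians are 2032 to 2381 CPM in replicate 1 and 632 to 909 CPM in replicate 2, while the mRNA medians lie between 1091 and 1414 CPM.

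Whether footprints of the family differ between times of the inhibitor was tested with edgeR's quasi-likelihood test over all transcripts. From 0 to 60 min, from 0 to 360 min and from 60 to 360 min, 0 of 22 members passed a Benjamini-Hochberg adjusted threshold of 0.05, as did 0% of 9653 transcripts. At an unadjusted p-value under 0.05 the number was also 0 of 22 in each of the 3, against 2.31%, 3.91% and 7.8% of all transcripts. DESeq2 called 0 members as well, and 0.0104%, 0.0104% and 0.0207% of all transcripts. The median log2 change of the members was 0.01 from 0 to 60 min (range −0.78 to 0.36), 0.06 from 0 to 360 min (range −0.19 to 0.39) and 0.03 from 60 to 360 min (range −0.32 to 1.13). The medians of the others were −0.01, 0.02 and 0.04. With library totals alone as the scaling, the members' medians were −0.01, −0.08 and −0.11 and those of the others −0.04, −0.12 and −0.07, so the sign of these small values depends on the scaling. For 22 of 22 members each replicate 1 footprint library lay above each replicate 2 library, so the compared times had to overlap. The counts of 0 members higher and 0 lower without overlap therefore restate the replicate split and say nothing more about time. Of all transcripts 15.2%, 13.6% and 17.5% were higher without overlap in the 3 comparisons, and 16%, 13.8% and 18% lower. The standard error (SE) of a member's log2 change had a median of 0.73 in each comparison, against 0.47 to 0.48 for the others. Each SE given here was worked back from edgeR's test, as the size of the log2 change over the square root of the F statistic.

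Single libraries decided the direction of these medians. From 0 to 360 min the median was −1.26 without RPF replicate 1 of 360 min, 0.70 without replicate 2 of 360 min, 0.87 without replicate 1 of 0 min and −0.39 without replicate 2 of 0 min. From 0 to 60 min it was −0.71 and 0.47 without replicates 1 and 2 of 60 min, and 0.69 and −0.39 without replicates 1 and 2 of 0 min. From 60 to 360 min it was −1.23 and 0.68 without replicates 1 and 2 of 360 min, and 0.77 and −0.48 without replicates 1 and 2 of 60 min. Each value follows the replicate split: leaving out a replicate 1 library of the later time, or a replicate 2 library of the earlier one, gave a median below 0, and the other choices gave one above 0.

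The member with the largest fitted footprint changes from 0 to 60 min and from 60 to 360 min was ENST00000647841, which also had the fewest counts. Its RPF level was 269 and 114 CPM at 0 min, 150 and 72.1 CPM at 60 min, and 400 and 86.0 CPM at 360 min, for replicates 1 and 2. Each time the replicate 1 library was the higher, and the ranges of the 3 times overlapped. The log2 change was −0.78 (SE 0.59) from 0 to 60 min and 1.13 (SE 0.59) from 60 to 360 min, and edgeR's adjusted p was 0.999 and 0.675. From 0 to 360 min it was 0.35 (SE 0.58), below the 0.39 (SE 0.88) of ENST00000598742. The narrowest footprint range over the 6 libraries was that of ENST00000356464, whose highest library was 1.95 times its lowest. It had 533 and 396 CPM at 0 min, 485 and 385 CPM at 60 min, and 608 and 312 CPM at 360 min.

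The mRNA levels of the family were compared in the same way. From 0 to 60 min the fitted change was above 0 for 22 of 22 members, with a median log2 change of 0.28 (range 0.01 to 0.90), where 48.2% of the other transcripts were above 0 and their median was −0.02. With library totals alone as the scaling, the members' median was 0.37 and that of the others 0.06. None of these changes passed: 0 of 22 had an adjusted edgeR p-value under 0.05 (0% of 9693 transcripts), 0 an unadjusted p-value under 0.05 (1.37% of all), and DESeq2 called 0 (0% of all). For 5 of 22 members both 60 min libraries lay above both 0 min libraries and for 0 both lay below, against 13.4% and 12.3% of all transcripts. The median was −0.01 without mRNA replicate 2 of 60 min, 0.06 without replicate 2 of 0 min, 0.62 without replicate 1 of 0 min and 0.51 without replicate 1 of 60 min.

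From 0 to 360 min the mRNA changes went both ways. The median log2 change was −0.09 (range −0.87 to 0.46) against −0.03 for the others, with 6 members above 0 and 16 below. Of the others, 48.3% were above 0. No member passed in edgeR at an adjusted p-value of 0.05 (0% of all transcripts), 0 had an unadjusted p-value under 0.05 (8.92% of all), and DESeq2 called 0 (0.0825% of all). Replicates did not overlap for 2 higher and 4 lower members, against 19.8% and 19.1% of all transcripts. With library totals alone these were 0 higher and 6 lower, against 13.6% and 25.5% of all transcripts on that scaling, and the median was −0.26 where that of the others was −0.19. It was 0.22 and −0.28 without mRNA replicates 1 and 2 of 0 min, and −0.19 and 0.02 without replicates 1 and 2 of 360 min. Requiring at least 10 counts in every library gave −0.24.

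From 60 to 360 min the members' mRNA was lower in 20 of 22 fits, with a median log2 change of −0.39 (range −1.08 to 0.23), where 47.8% of the others were above 0 and their median was −0.04. Library totals alone gave −0.65 for the members and −0.28 for the others. Replicates did not overlap for 13 lower and 2 higher members, against 19.6% and 20.7% of all transcripts, and with library totals alone for 18 lower and 0 higher, against 29.4% and 13.1% on that scaling. No member had an adjusted edgeR p-value under 0.05 (0% of all transcripts), 1 of 22 had an unadjusted p-value under 0.05 (10.3% of all), and DESeq2 called 0 (0.681% of all). Without mRNA replicate 2 at 60 min the median was −0.12, and without replicate 1 at 60 min it was −0.66. The share of the members in that replicate 2 library, 5.66%, was the highest of the 12 libraries, and its part in the result beyond these values was not tested.

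The member with the lowest unadjusted p-value in mRNA was ENST00000372360. Its mRNA level was 586 and 561 CPM at 0 min, 529 and 794 CPM at 60 min, and 255 and 371 CPM at 360 min. Both 360 min libraries lay below the other 4. The log2 change was −0.87 (SE 0.46) from 0 to 360 min, where edgeR gave an adjusted p of 0.592. It was −1.08 (SE 0.46) from 60 to 360 min, where edgeR's unadjusted p was 0.0427 and the adjusted one 0.468. ENST00000380394 had the same order of times, at 2417 and 1896 CPM at 0 min, 2141 and 3402 CPM at 60 min, and 1372 and 1485 CPM at 360 min. From 0 to 360 min this is a log2 change of −0.59 (SE 0.51), for which edgeR's adjusted p was 0.718. ENST00000296674 went from 872 and 1135 CPM at 0 min to 727 and 767 CPM at 360 min, a log2 change of −0.43 (SE 0.47), smaller than its SE and −0.23 without replicate 2 of 0 min. That of ENST00000380394 was −0.36 without replicate 1 of 0 min.

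ENST00000343262 ran the other way. Its mRNA level was 5395 and 3376 CPM at 0 min, 5496 and 5497 CPM at 60 min, and 6450 and 5605 CPM at 360 min. The libraries of both later times lay above both 0 min libraries. Those of 60 min and replicate 2 of 360 min were only a little above replicate 1 of 0 min. The change from 0 min was 0.33 (SE 0.54) on the log2 scale by 60 min and 0.46 (SE 0.54) by 360 min, and edgeR's adjusted p was 0.9999 and 0.799. ENST00000356464 had 346 and 322 CPM at 0 min, 328 and 345 CPM at 60 min, and 348 and 442 CPM at 360 min, so its 360 min libraries lay just above those of 0 min in replicate 1 and further above in replicate 2. The log2 change of 0.24 (SE 0.41) was 0.10 without replicate 2 of 360 min and 0.43 without replicate 1 of 360 min. ENST00000270625 was higher at 60 min, at 3836 and 3609 CPM, than at 0 min, at 2747 and 2319 CPM, a difference of 0.56 (SE 0.52) on the log2 scale for which edgeR's adjusted p was 0.9999. At 360 min it had 3319 and 2034 CPM. The largest fitted mRNA difference from 0 to 60 min was that of ENST00000647841, at 0.90 (SE 0.56) on the log2 scale, for which edgeR's adjusted p was 0.9999. It rested on 24 counts in each 0 min library, and on 31 and 93 in those of 60 min. Without replicate 2 of 60 min it was 0.15, and without replicate 1 of 60 min 1.41. For ENST00000343262 the change by 60 min was 0.02 without replicate 2 of 0 min and 0.73 without replicate 1 of 0 min, and that by 360 min was 0.15 and 0.88. These values passed no test and are given as levels.

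The ratio of footprint to mRNA level, a measure of ribosome density relative to the average of the libraries, was taken from the mean CPM of each group. Length cancels in it only if both assays were counted over the same region of the transcript. The sources used here do not give that region, so ratios of different transcripts may also differ for this reason, which was not tested. At 0 min the members' median ratio was 1.07, and 11 of 22 were above 1. The median of 8610 other transcripts was 1.10, with 55.0% above 1. Depending on which RPF library was set against which mRNA library, the members' median ran from 0.554 to 1.63 at 0 min. At 60 min the members' median was 0.892 where the others had 1.05, and at 360 min 1.21 where the others had 1.15, with spreads over library pairs of 0.499 to 1.43 and 0.509 to 2.35. The medians of the 3 times thus differed by less than the pairs of libraries did.

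Within the family the ratios ran from 0.292 to 5.83 at 0 min, from 0.248 to 2.61 at 60 min and from 0.218 to 6.28 at 360 min. The lowest belonged to ENST00000343262, with a ratio of 0.292 at 0 min, 0.248 at 60 min and 0.218 at 360 min. No pairing of its RPF and mRNA libraries gave more than 0.458. The next lowest at 0 min were ENST00000274065 at 0.419 and ENST00000230050 at 0.598. The highest at 0 and 360 min belonged to ENST00000647841, with 5.83 at 0 min, 1.83 at 60 min and 6.28 at 360 min, which rested on 12 to 93 mRNA counts per library. ENST00000372360 was next below it at those times and the highest at 60 min, with 2.98 at 0 min, 2.61 at 60 min and 4.79 at 360 min, and no pairing of its libraries gave less than 1.59. The ranges of the lowest ratio and of the highest well-counted one thus did not meet at any time. ENST00000296674 came next below at 0 min with 1.70 and ranged from 0.760 to 2.91 over its library pairs. In the order of the 22 ratios, the ranges over library pairs overlapped for 21 of 21 neighbours at each time, and 17 of 22 members had ranges that spanned 1. Ratios were alike between times, with a Pearson r of log2 ratios across the 22 members of 0.919 between 0 and 60 min and 0.964 between 0 and 360 min. Without ENST00000647841 these were 0.960 and 0.956. These are descriptions across transcripts that share libraries at each time.

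**Figure D3:**
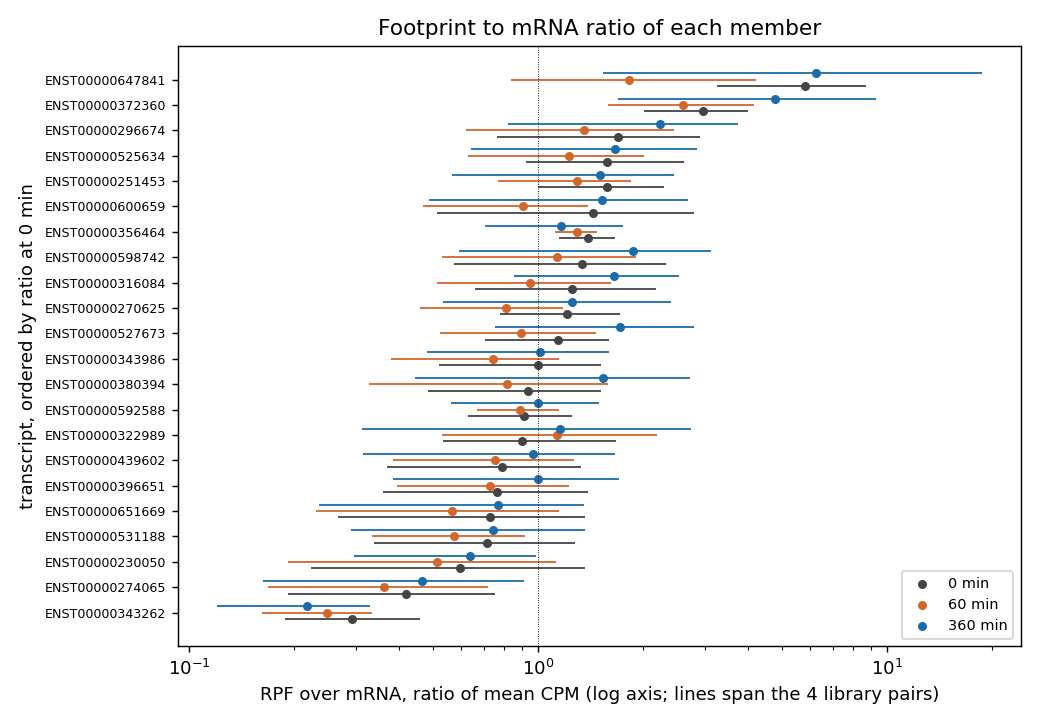
Ratio of mean RPF to mean mRNA CPM for each of the 22 members (x axis, log) at 0, 60 and 360 min, ordered by the ratio at 0 min (y axis); lines span the ratios of the 4 pairs of single libraries. ENST00000343262 stays between 0.218 and 0.292 and ENST00000372360 between 2.61 and 4.79 at the 3 times, while the lines of 17 of 22 members span 1 at each time.

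Translational efficiency (TE), footprints relative to mRNA, was compared between times by an assay-by-time term fitted to 8632 transcripts in all 12 libraries. From 0 to 60 min the fitted TE change was below 0 for 21 of 22 members, where 51.4% of the other transcripts were above 0. The median log2 change was −0.25 (range −1.64 to 0.35) where the others had 0.02. Library totals alone gave −0.37 for the members and −0.10 for the others. None passed: 0 of 22 at an adjusted edgeR p-value of 0.05 (0% of all), 0 at an unadjusted one (1.75% of all), and DESeq2 called 0 (0% of all). The median was 0.49 without RPF replicate 1 of 0 min and 0.20 without RPF replicate 2 of 60 min. It was −0.05 without mRNA replicate 2 of either time, and −0.98 and −0.73 without RPF replicate 1 of 60 min or replicate 2 of 0 min. The mRNA and TE values at 60 min use the same mRNA libraries and are not separate observations.

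From 0 to 360 min the median TE change was 0.09 (range −0.47 to 0.67), where the others had 0.01. Above 0 were 17 members, against 50.6% of the others. From 60 to 360 min the median TE change was 0.37 (range −0.25 to 1.76), where the others had 0.02. Above 0 were 19 members, against 51.3% of the others. In both comparisons 0 of 22 members passed an adjusted edgeR p-value of 0.05 (0% of all), 0 had an unadjusted p-value under 0.05 (5.66% and 4.69% of all), and DESeq2 called 0 (0% and 0.0232% of all). Without RPF replicate 1 of 360 min the medians were −1.12 and −0.88. From 0 to 360 min the median was also below 0 without RPF replicate 2 of 0 min (−0.36), mRNA replicate 1 of 0 min (−0.11) or mRNA replicate 2 of 360 min (−0.08), and with the replicate number as a block (−0.04). From 60 to 360 min it was −0.14 without RPF replicate 2 of 60 min. The SE of a member's TE change had a median of 0.98 to 0.9975, against 0.68 to 0.71 for the others. In each comparison, 0 of 22 members had footprint and mRNA groups that both did not overlap, in opposite directions or in the same one. This was fixed in advance, since the footprint groups overlapped for each member, and it says nothing more about TE. Of all transcripts, 3.31% to 4.21% did so in opposite directions and 3.97% to 11.4% in the same one.

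ENST00000647841 had the lowest change at 60 min, −1.64 (SE 0.97), for which edgeR's adjusted p was 0.99998. It was −0.91 without RPF replicate 1 of 0 min, −0.94 without mRNA replicate 2 of 60 min and −2.28 without RPF replicate 1 of 60 min. ENST00000600659 followed with −0.65 (SE 1.00), and ENST00000322989 was the single member above 0, with 0.35 (SE 1.13). At 360 min the highest were ENST00000380394 with 0.67 (SE 1.12) and ENST00000372360 with 0.65 (SE 0.89), and the lowest were ENST00000343262 with −0.47 (SE 0.95) and ENST00000356464 with −0.30 (SE 0.60). Each of these 4 changes was smaller than its SE, and edgeR's adjusted p lay between 0.9505 and 0.975. ENST00000343262 and ENST00000356464 also had the highest fitted mRNA changes from 0 to 360 min, 0.46 and 0.24, and ENST00000372360 and ENST00000380394 those with the lowest mRNA changes, from the same mRNA libraries.

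**Figure D4:**
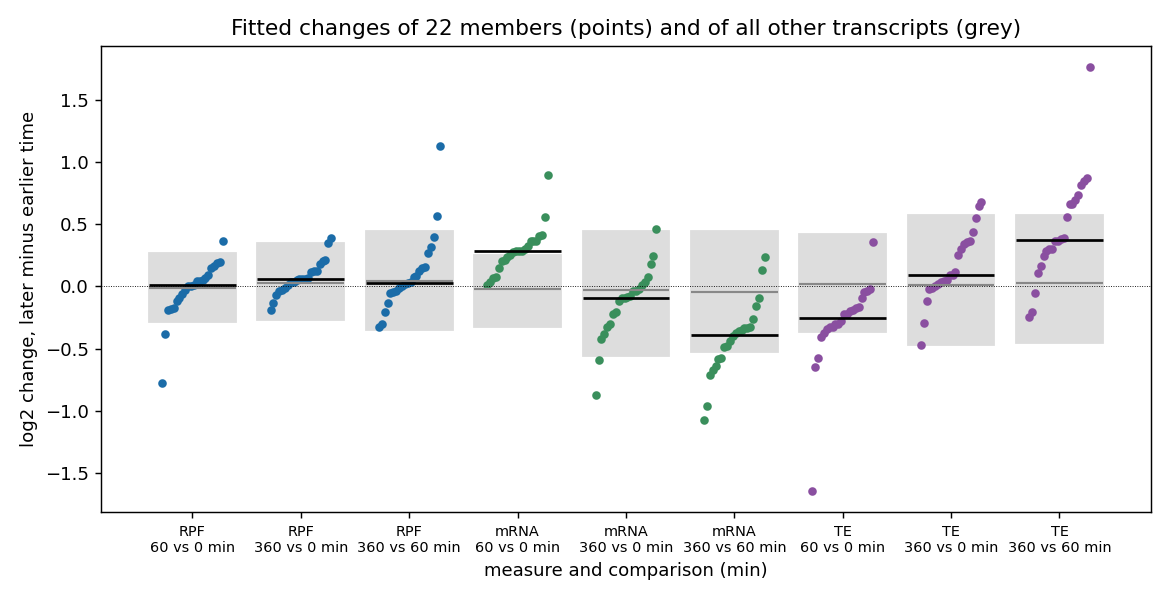
Fitted log2 change (y axis) of each of the 22 members (points, black line at their median) for RPF, mRNA and TE in the 3 comparisons of times (x axis); grey boxes span the middle 50% of all other transcripts and the grey line is their median. RPF medians lie between 0.01 and 0.06, the mRNA medians at 0.28, −0.09 and −0.39, and the TE medians at −0.25, 0.09 and 0.37, with 0 of 22 members past the adjusted threshold in each comparison.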

How the data were processed

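The authors deposited 1 file per library with raw counts per Ensembl transcript, whole numbers that are not normalized, as the values show; only transcripts with at least 1 count are listed, and a missing row was taken as 0. The submitters' processing notes name cutadapt 2.8, Bowtie 1.2.3 and STAR 2.7.10a. The counting program, build, annotation and strand use are not given in the sources used here. Per the labels' protocols, footprints came from RNase I digestion of monosome and polysome fractions.

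Groups and times came from sample titles. The members and lists were chosen with earlier results of these data known. edgeR 4.0.16 in R 4.3.3 was fitted to all transcripts passing filterByExpr (TMM, glmQLFit, glmQLFTest, time as the factor, 6 libraries per assay; TE as interaction over 12, TMM within each assay), with Benjamini-Hochberg adjustment and a threshold of 0.05. The set has no test of its own. Members were named for the 3 largest changes each way from 0 min among those whose replicates did not overlap, the 2 largest TE changes each way, and the 3 highest and 3 lowest ratios at 0 min. In RPF no member met the rule on overlap. The members given for the largest footprint changes and the narrowest footprint range were named outside the rule. Of the 18338 identifiers 0 matched the symbol tables, so RPSA and FAU, which the rule also names, were not analysed singly here. Alternatives were 3 scalings, 2 filters, DESeq2 1.42.0, a replicate block and leaving out libraries. Library totals of 429026 to 1165740 counts limit precision. The fits were tested on simulated data with planted changes larger than any fitted for a member and with no difference between replicate numbers. That test does not show whether changes of the members' size would be found.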

Additional observations from a re-analysis of the deposited data

How the results depend on the processing

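In 112 of 112 alternative fits, 0 members passed an adjusted p-value of 0.05. Some transcript passed in 19 of them, at most 0.708% of those tested (RPF from 60 to 360 min without RPF 360 min replicate 1), and with no filter on low counts at most 0.629%. Setting library totals alone in place of TMM moved the members' median mRNA change to −0.256 from 0 to 360 min and −0.652 from 60 to 360 min, and at least 10 counts in every library moved the former to −0.240. Medians without one compared library (a lone library is then assumed to vary like the other groups) ran from −1.26 to 0.868 for RPF from 0 to 360 min, from −1.23 to 0.767 for RPF from 60 to 360 min, from −0.00842 to 0.618 for mRNA from 0 to 60 min, from −0.283 to 0.220 for mRNA from 0 to 360 min and from −0.664 to −0.117 for mRNA from 60 to 360 min. For TE they ran from −1.12 to 0.978 from 0 to 360 min and from −0.882 to 1.27 from 60 to 360 min. For TE changes from 0 to 60 min these ranges were −1.52 to 0.57 for ENST00000600659 and −0.39 to 0.84 for ENST00000322989, with values of −0.39 without RPF 60 min replicate 1, 0.84 without RPF 60 min replicate 2 and −0.29 without mRNA 0 min replicate 1. From 0 to 360 min they were −0.64 to 1.32 for ENST00000372360, −1.09 to 1.46 for ENST00000380394, −0.89 to 0.12 for ENST00000356464 and −1.26 to 0.043 for ENST00000343262, with the ends at RPF replicates 1 and 2 of 360 min. The cause of these shifts was not tested. Counts of members without overlap that were higher in mRNA at 360 min fell from 2 to 1 with RLE size factors (19.7% and 20.4% of all transcripts) and to 0 with library totals (13.6% and 13.1%), against 0 min and against 60 min alike; these counts and the crossed block were added after seeing the data.

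The replicate number as a block called 0 members in each of the 9 comparisons. Of all transcripts it called 0.0104%, 0.0207% and 0.0725% in RPF (0 to 60, 0 to 360 and 60 to 360 min) and 0% in the mRNA and TE comparisons. The members' median RPF changes with the replicate block were 0.00, −0.07 and −0.09 from 0 to 60, 0 to 360 and 60 to 360 min. Replicate differences of all transcripts correlated between times at 0.254, 0.292 and 0.223 in RPF and at −0.371, −0.059 and 0.334 in mRNA (0 with 60, 0 with 360, 60 with 360 min), and no label says that a number marks a common day or dish. A crossed pairing of mRNA at 0 and 60 min called 0 members (0% of all).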
